A study of Mus musculus with 18 samples.

Results

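Peaks of thymine DNA glycosylase (TDG) were described in adult mouse cerebral cortex from the 3 peak lists of the TDG antibody, on chromosomes 1 to 19. Those lists hold 1299 peaks, of 488083 peaks on the same chromosomes in all 15 lists of the series. Each list comes from chromatin immunoprecipitation sequencing (ChIP-seq) of the frozen cortex of 1 wild-type C57BL/6J female aged 14 weeks, and the animals carry the numbers 5, 7 and 9. The other lists set beside TDG come from the same 3 cortices. They are MBD3, the histone marks H3K27ac and H3K4me1, and RNA polymerase II phosphorylated at serine 5 (PolII_S5P). No animal was treated or mutated. Of the 3 input samples, none was analysed here. Cortex is a mixture of neurons and glia, so a peak can come from any of its cell types. No sample lacking TDG was among those analysed, so the antibody was not checked against one.

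TDG is a base excision repair enzyme. It removes thymine from G:T mismatches and also 5-formylcytosine and 5-carboxylcytosine, the oxidation products that TET enzymes make from methylated cytosine, and so takes part in active DNA demethylation. MBD3 is a subunit of the NuRD complex, which combines nucleosome remodelling with histone deacetylation. H3K27ac marks active promoters and enhancers, H3K4me1 is found mainly at enhancers, and PolII_S5P accumulates near transcription start sites. The series title names active promoters and a TDG interaction with MBD3/NuRD, so the position of TDG relative to these proteins is the question behind the distances below.

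The TDG lists were short and unequal, with 125 peaks in animal 5, 240 in animal 7 and 934 in animal 9. The lists of the other 4 antibodies held between 4351 peaks (PolII_S5P, animal 5) and 67877 peaks (H3K27ac, animal 7). Read depth is unknown, so a longer list cannot be told apart from a more deeply sequenced library or a more efficient immunoprecipitation. Every test below compares 1 value per library, or 1 per class of peaks in a library. With 3 values against 3, a two-sided exact permutation test cannot go below p = 0.1. No difference could thus pass 0.05, and the agreement of the 3 animals is given beside each value. The p-values printed with each result ignore the pairing of values by animal. For shared, clustered or strongest peaks against other TDG peaks, both values come from the same 3 lists. The paired form of the exact permutation test cannot go below p = 0.25.

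TDG peaks were short and of nearly equal width in the 3 animals. The median width was 273 bp in animal 5, 293.5 bp in animal 7 and 284 bp in animal 9. The middle range between the quartiles ran from 226 to 345 bp, 233.75 to 410.5 bp and 242.25 to 363 bp. Few peaks were broad, since 11, 37 and 70 reached 500 bp (8.8%, 15.4% and 7.49% of their lists) and 0, 2 and 4 reached 1000 bp. The average of the 3 TDG medians was 283.5 ± 10.3 bp (SD, n = 3), against 366 ± 19.2 bp for PolII_S5P, 429 ± 36.3 bp for MBD3, 485 ± 37.2 bp for H3K4me1 and 622 ± 48.0 bp for H3K27ac. The 3 TDG medians lay below all 3 medians of each other antibody. The lists also differed in their shortest peak. In animals 5, 7 and 9 it measured 206, 213 and 220 bp for TDG and 278, 302 and 292 bp for H3K4me1. Each H3K4me1 minimum exceeded the TDG median of the same animal, so the order of those medians was fixed by the minima. The H3K27ac minima were 266, 254 and 244 bp. What set these minima was not tested. The ratio of TDG to the other median was 0.774 for PolII_S5P, 0.662 for MBD3, 0.585 for H3K4me1 and 0.457 for H3K27ac (exact permutation, two-sided, adjusted p = 0.1 over 4 pairs each, the smallest attainable).

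The strength of a peak is its fold enrichment over local background, as the peak caller gave it, and is used here within a list. The median fold was 6.94 in animal 5, 4.63 in animal 7 and 4.47 in animal 9, and the maximum was 25.9, 22.7 and 39.6. At least 10-fold enrichment was found for 26, 25 and 56 peaks, which is 20.8%, 10.4% and 6.0% of the lists. The longest list thus held the largest number of strong peaks and the smallest share of them. Peaks well past the significance threshold, with a −log10 q of at least 5, numbered 112 (89.6%), 121 (50.4%) and 304 (32.5%). Strength and width were nearly unrelated across TDG peaks, with Spearman coefficients of 0.016, -0.026 and 0.14 in animals 5, 7 and 9. The same coefficient lay between 0.224 and 0.506 across MBD3 peaks and between 0.445 and 0.530 across H3K27ac peaks. These coefficients are descriptions over peaks of 1 library, which share its depth and background.

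**Figure D1:**
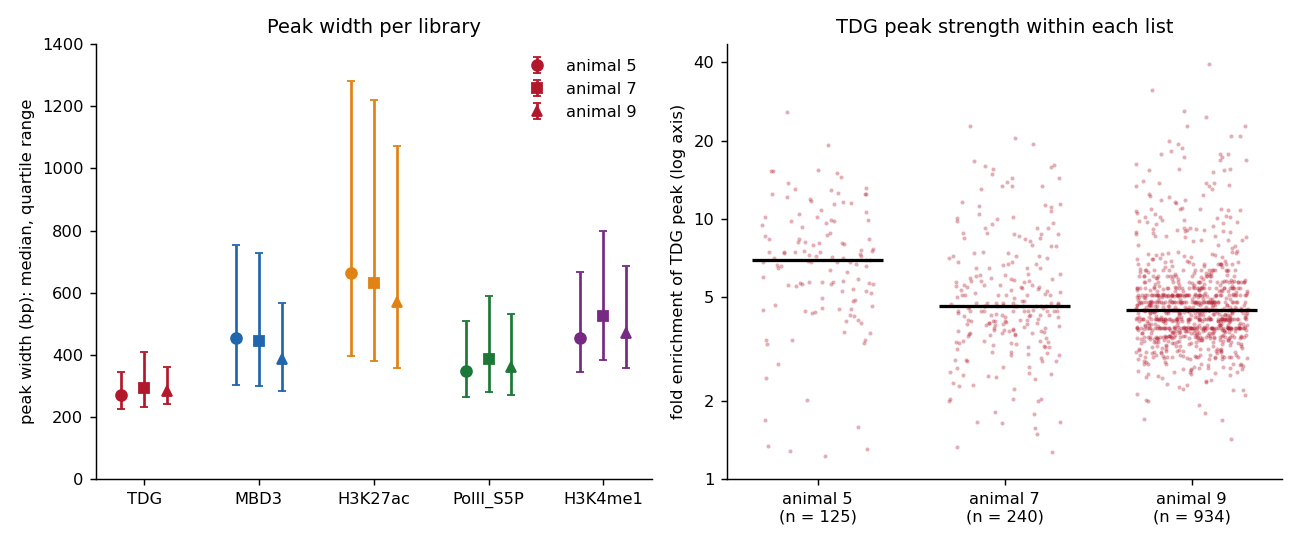
Left, median peak width in bp with the quartile range for each library, by antibody, with a marker for each animal. Right, fold enrichment of every TDG peak (log axis) by animal, with the median as a line. The TDG medians of 273, 293.5 and 284 bp lie below those of all other libraries shown, and animal 9 has the most peaks and the highest single fold (39.6).

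Fold and significance ranked the peaks differently at a few places. Peaks with a fold under 2 numbered 6, 10 and 6, and 4, 6 and 5 of them lay within 100 kb of another TDG region. Of all TDG peaks, 56%, 35.8% and 32.7% did so. A single run on chromosome 10, described below, held 2, 1 and 1 of the peaks with a fold under 2. The highest −log10 q of animal 7, 5914, belonged to a peak of 3.37-fold at chr2:98496959-98497640, while animal 5 had a −log10 q of 584 there with a fold of 1.31. The nearest MBD3 summit was 526206 bp away in animal 7 and 958925 bp away in animal 5. In animal 9 the 3 highest −log10 q values, 473, 466 and 416, all fell in a run of regions on chromosome 6 described below. These peaks were picked for their q-values after those were seen.

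TDG peaks were merged where they overlapped by at least 1 bp, which gave 1121 regions. Of these, 55 had a peak in all 3 libraries, 66 in exactly 2 and 1000 in 1. Among the 66, 36 were found in animals 5 and 9, 23 in animals 7 and 9, and 7 in animals 5 and 7. Of the 1000, 820 came from animal 9, 155 from animal 7 and 25 from animal 5. As a share of each list, 80% of the peaks of animal 5, 35.4% of animal 7 and 12.2% of animal 9 lay in a region with another library. Peaks in regions found in all 3 libraries made up 44.8%, 22.9% and 5.89% of the lists. Cutting each list to its 125 strongest peaks gave 46 regions in all 3 libraries and 39 in exactly 2.

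Where a region was found in all 3 libraries, the summits (the position of highest enrichment in a peak) fell close together. The summits of the 3 animals spanned a median of 22 bp (range 2 to 298 bp). The span was at most 50 bp in 39 of the 55 regions and at most 100 bp in 49. The 55 regions lay on 16 chromosomes, with 17 on chromosome 6, 5 each on chromosomes 2 and 11, and none on chromosomes 4, 17 and 18. Their merged width had a median of 489 bp (range 254 to 1359 bp).

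Chromosome 6 held 15.2%, 15.0% and 7.17% of TDG peaks in animals 5, 7 and 9, against 5.58%, 5.61% and 5.66% of MBD3 peaks. Without the run of regions on chromosome 6 described below, these TDG shares were 5.36%, 6.85% and 5.56%. Chromosome 13 held 8.8%, 5.83% and 7.92% of TDG peaks, against 4.59%, 4.76% and 4.78% of MBD3 peaks. Chromosome 4 lay on the other side. It held 0 of 125 TDG peaks in animal 5, which allows a share of up to 2.4%, and 1.67% and 3.85% in animals 7 and 9, against 6.63%, 6.49% and 6.58% of MBD3 peaks. These 3 chromosomes were picked for their shares and not tested.

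Strong peaks were those most often found again in another animal. In the top quartile of each list by fold, 32 of 32, 51 of 60 and 93 of 236 peaks of animals 5, 7 and 9 lay in a region with another library. In the bottom quartile these were 20 of 31, 15 of 60 and 13 of 231. Regions in all 3 libraries took 62.5%, 78.3% and 22.0% of the top quartiles and 32.3%, 1.67% and 0.433% of the weakest. The 10 strongest peaks of each list were all in shared regions, 7, 10 and 5 of them in regions of all 3 libraries. Peaks in shared regions stood at a median fold percentile of 58, 80.4 and 92.1 within their lists, and the other peaks at 28.8, 40.4 and 45.5. The difference of 38.6 points had the same sign in 3 of 3 animals (exact permutation adjusted p = 0.125 over 5 measures). Shared peaks were also wider in each animal, by 0.42 on the log2 scale of median width (exact permutation adjusted p = 0.125).

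**Figure D2:**
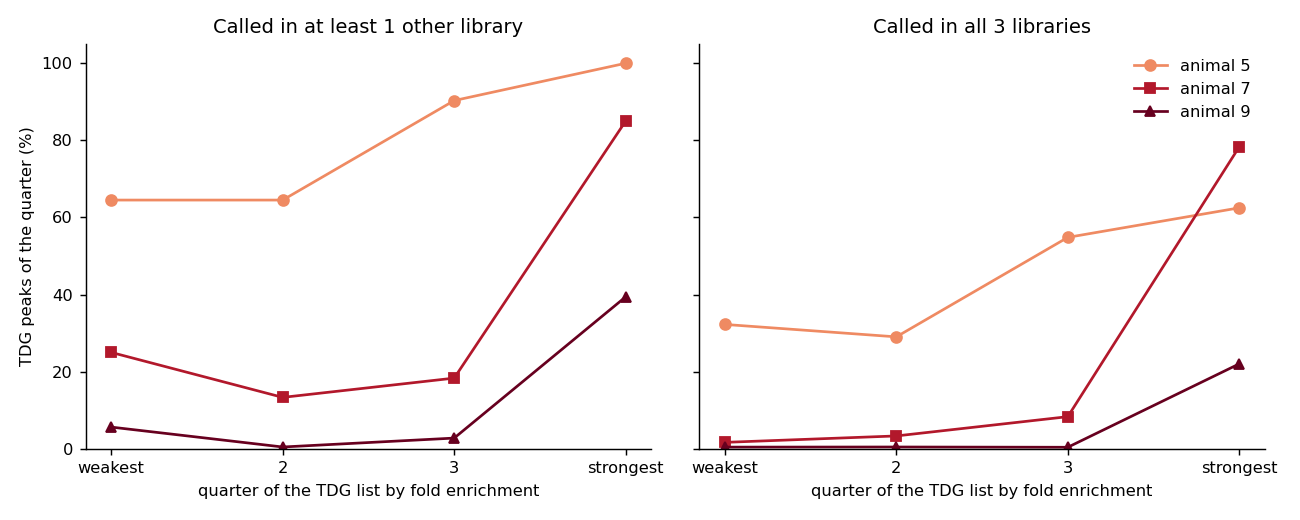
Percent of TDG peaks in each quartile of a list, ordered by fold enrichment, that lie in a region with at least 1 other library (left) or with all 3 (right), 1 line per animal. In the top quartile the left panel reaches 100% in animal 5, 85% in animal 7 and 39.4% in animal 9.

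Regions found in all 3 libraries lay near MBD3 summits more often than regions found in 1. A MBD3 summit of the same animal was within 500 bp of 83.9%, 85.5% and 80% of the peaks in 3-library regions in animals 5, 7 and 9. In 2-library regions the shares were 61.4%, 50% and 64.4%, and in 1-library regions 32%, 12.9% and 56.0%. For H3K27ac the shares were 62.5%, 65.5% and 56.4% in 3-library regions and 48%, 4.52% and 50.6% in 1-library regions. PolII_S5P went different ways, with 10.7%, 38.2% and 25.5% in 3-library regions and 48%, 6.45% and 20.2% in 1-library regions.

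Taking 2-library and 3-library regions together, shared peaks had a MBD3 summit within 500 bp in 73.0 ± 1.04% and the other TDG peaks in 33.6 ± 21.6% (SD, n = 3 each). This difference of 39.3 points had the same sign in 3 of 3 animals, as did that of 22.4 points for H3K27ac (exact permutation adjusted p = 0.125 each). For H3K27ac the size differed between animals. Shared peaks had 59%, 58.8% and 52.6% in animals 5, 7 and 9, and the other peaks 48%, 4.52% and 50.6%. Without animal 7 the H3K27ac difference was 11.04 points. The PolII_S5P difference was 0.43 points, with 2 animals on 1 side, and its sign changed under 7 of the settings tried (exact permutation adjusted p = 1). The MBD3, H3K27ac and PolII_S5P lists of an animal were also cut to equal length, keeping the strongest peaks. The MBD3 and H3K27ac differences were then 11.7 and 4.03 points.

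**Figure D3:**
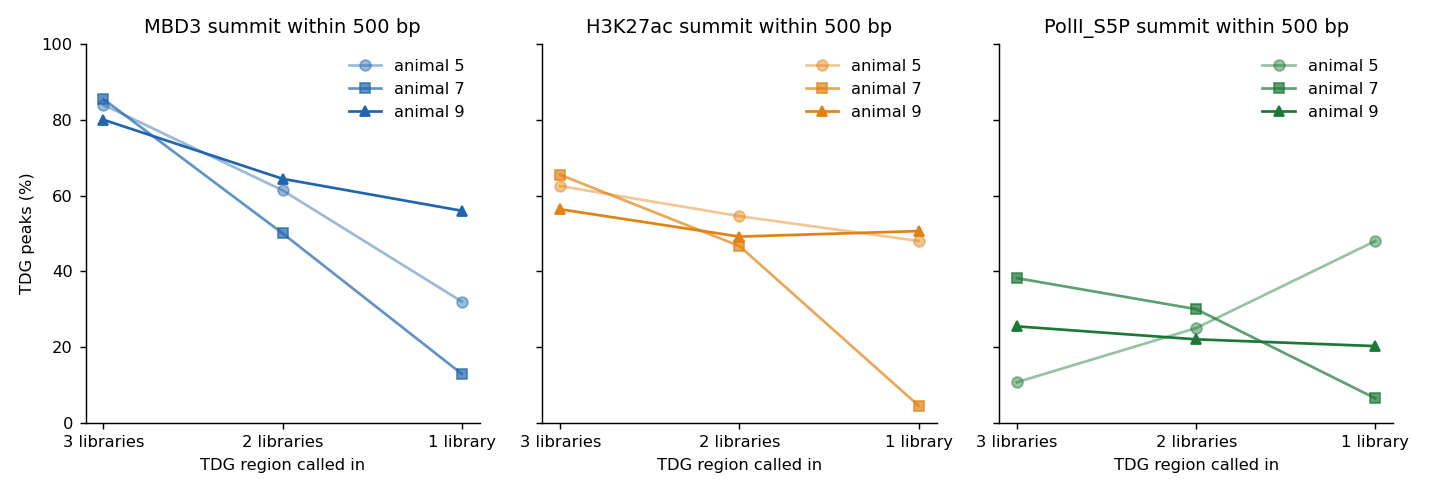
Percent of TDG peaks with a summit of MBD3, H3K27ac or PolII_S5P of the same animal within 500 bp, by the number of libraries in which the TDG region was called, 1 line per animal. MBD3 shares stand between 80% and 85.5% for regions in 3 libraries and between 12.9% and 56.0% for regions in 1 library.

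The 55 regions were not uniform in what lay beside them. They are not all separate loci, since 13 belong to the run on chromosome 6 described below, and 42 remained without that run. A MBD3 summit was within 500 bp in every animal at 38 regions, H3K27ac at 28 and PolII_S5P at 6. At 24 regions MBD3 and H3K27ac were both that near in every animal, and at 4 all of MBD3, H3K27ac and PolII_S5P were. No region lacked all of them in all animals. The median distance from the TDG summit to MBD3 was 185 bp, 174 bp and 193 bp in animals 5, 7 and 9, and that to H3K27ac was 393 bp, 320 bp and 408 bp.

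The strongest region by mean rank was chr13:21894295-21895563, ranked 2, 1 and 1 in animals 5, 7 and 9. Its TDG summits were at 21895190, 21895199 and 21895199. The nearest MBD3 summit was 905 bp away in animal 5 and 904 bp away in animal 7, but 7 bp away in animal 9, and H3K27ac summits were 672 bp, 736 bp and 709 bp away. At the next region, chr3:96407640-96408998, MBD3 summits were near in animals 5 and 9 (5 bp and 7 bp) and 1112 bp away in animal 7. It is also the widest TDG peak of animal 9, at 1359 bp, although the peaks of animals 5 and 7 there measured 248 and 226 bp.

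Others of the 10 best regions had tight neighbours in every animal. At chr2:18591802-18592055 the MBD3 summit was 10 bp, 3 bp and 9 bp from the TDG summit, H3K27ac 290 bp, 296 bp and 365 bp, and PolII_S5P 305 bp, 370 bp and 340 bp. At chr5:129577853-129578419 the distances were 88 bp, 153 bp and 89 bp to MBD3, 307 bp, 54 bp and 39 bp to H3K27ac, and 116 bp, 106 bp and 172 bp to PolII_S5P. At chr6:113283786-113284283 MBD3 (231 bp, 153 bp and 155 bp) and H3K27ac (23 bp, 100 bp and 32 bp) were near in each animal, while PolII_S5P was near in animal 7 alone (258 bp).

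The remaining 5 of the 10 lacked a near MBD3 or H3K27ac summit in at least 1 animal. At chr2:118877176-118877495 MBD3 lay at 12 bp, 442 bp and 51.2 kb, and H3K27ac no nearer than 17.6 kb in any animal. At chr16:57427066-57427615 MBD3 lay at 57.6 kb, 27 bp and 3 bp, and H3K27ac at 92 bp, 82 bp and 148 kb. Of the other 3, chr13:23622793-23623050 had H3K27ac 1092 bp, 1041 bp and 1329 bp away. At chr3:90383084-90383409 MBD3 lay at 291 bp, 9 bp and 9.31 kb, and at chr6:126916513-126917037 at 52 bp, 14 bp and 90.5 kb. Strong TDG enrichment was found with and without a neighbouring MBD3 summit in the same animal.

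By smallest mean distance to MBD3, the first 3 of the 55 regions were chr12:69407903-69408330 (6 bp, 8 bp and 3 bp), the chromosome 2 region at 18591802 above, and chr11:76297675-76298073 (8 bp, 7 bp and 53 bp). The chromosome 12 region had folds of 7.22, 11.3 and 7.45, at ranks 57 of 125, 19 of 240 and 93 of 934 in their lists. The chromosome 11 region had folds of 4.50, 7.08 and 7.23, at ranks 100, 53 and 101, which is the bottom quartile of animal 5 and the top quartile of animals 7 and 9.

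Among regions found in a single pair of animals, the best for animals 5 and 7 was chr17:4676443-4676849, the strongest peak of animal 5 at 25.9-fold. It reached 7.88-fold in animal 7 and was not called in animal 9. The best for animals 5 and 9 was chr11:48725084-48725502, with folds of 15.0 and 26.1, and that for animals 7 and 9 was chr13:21344857-21345183, with folds of 11.1 and 22.8. Peaks called in 1 animal reached 9.36-fold in animal 5 at chr13:21352165-21352383, 9.27-fold in animal 7 at chr7:98946066-98946459 and 17.9-fold in animal 9 at chr3:97065277-97065549. The widest TDG peak of all 3 lists, 1934 bp at chr13:74676814-74678747, was in animal 7 alone and weak (2.04-fold). The widest of animal 5 was its 856 bp peak in the strongest region.

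TDG regions were called clustered when another TDG region lay within 100 kb, and isolated otherwise. Clustered regions numbered 368 of 1121 (32.8%), in 126 groups, and 753 were isolated. Most groups were pairs, since 87 of the 126 held 2 regions and 24 held 3 or 4. Counted by peaks, 56%, 35.8% and 32.7% of the lists of animals 5, 7 and 9 were clustered. Shared regions made up 18.5% of clustered and 7.04% of isolated regions. That share was 8.62% in pairs, 28.2% in groups of 5 to 9 regions and 65.6% in the 2 groups of 10 or more. Those 2 groups are runs on chromosomes 6 and 13 described below, and most of their shared regions were in the first. It had 13 regions in 3 libraries and 3 in 2 among its 21, and the second had 1 and 4 among its 11.

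Within single lists, TDG peaks had close neighbours more often than equally many of the strongest MBD3 peaks. A neighbour within 100 kb in the same list was found for 46.4%, 27.5% and 31.3% of TDG peaks, against 3.2%, 5% and 23.6% of MBD3 peaks in animals 5, 7 and 9. The difference in means was 24.5 points (exact permutation adjusted p = 0.3 over 3 comparisons, same sign in 3 of 3 animals). The strongest H3K27ac peaks had such a neighbour in 11.2%, 23.3% and 44.0%, above TDG in animal 9, with a mean difference of 8.88 points for TDG (exact permutation adjusted p = 0.6). The strongest PolII_S5P peaks had one in 41.6%, 27.9% and 42.1%, a mean difference of -2.14 points for TDG (exact permutation adjusted p = 0.9). This comparison was added after the data were seen.

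In none of 5 measures did clustered and isolated TDG peaks differ the same way in all 3 animals. Their median widths were 269.5, 322 and 287 bp in clustered peaks and 283, 277.5 and 283 bp in isolated peaks. Their median fold percentiles within a list were 48, 46.3 and 61.9 in clustered and 55.2, 51.3 and 46.4 in isolated peaks. A MBD3 summit was within 500 bp of 61.4%, 46.5% and 53.4% of clustered peaks and 70.9%, 27.3% and 60.1% of isolated ones. H3K27ac was near 47.1%, 25.6% and 49.8% of clustered and 69.1%, 22.7% and 51.4% of isolated peaks, and PolII_S5P near 21.4%, 15.1% and 21.0% of clustered and 25.5%, 17.5% and 20.5% of isolated peaks. The exact permutation adjusted p was 0.9 for each measure.

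There were 15 runs of at least 5 regions, holding 117 regions (10.4%) and 21 of the 55 regions found in all 3 libraries. The run with the most regions lay at chr6:47630453-47749349. It had 21 regions within 119 kb, 13 of them in all 3 libraries, 3 in 2 and 5 in animal 7 alone. Neighbouring TDG summits there were evenly spaced in stretches on both sides of a gap of about 52.0 kb between regions. The median gap between successive summits was 4332.5 bp over 12 gaps in animal 5, 4268 bp over 20 gaps in animal 7 and 4343 bp over 15 gaps in animal 9. In a window of 4000 to 4700 bp, set after the gaps were seen, lay 10, 9 and 12 of them. The SD inside that window, which the window itself limits, was 31.9, 48.5 and 58.1 bp. The 13 regions in all 3 libraries had folds of 2.78 to 7.06, 4.99 to 13.4 and 4.35 to 9.12. The 5 in animal 7 alone were weaker there, at 2.28 to 4.28. The 3 in 2 libraries were also weaker, at 1.66 to 2.93 in animal 7 and 1.93 to 2.58 in animal 9. MBD3 summits were within 500 bp of 12 of 13 peaks in animal 5, 21 of 21 in animal 7 and 14 of 16 in animal 9, and no PolII_S5P summit lay within 16.2 kb. This run took 10.4%, 8.75% and 1.71% of the 3 lists.

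Chromosome 13 held 3 of the runs. The run at chr13:21344857-21511269 had 11 regions, with a MBD3 summit within 500 bp of 4 of 4, 2 of 3 and 10 of 10 peaks in animals 5, 7 and 9. Those at chr13:22039456-22213487 and chr13:23615457-23746367 had 9 regions each. A MBD3 summit was that near 2 of 2, 0 of 1 and 4 of 7 peaks at 22039456. At 23615457 it was that near 2 of 4, 2 of 2 and 3 of 9 peaks. In animal 9 the median folds of the 3 runs were 9.69, 8.30 and 12.4, at percentiles 93.6, 91.0 and 96.5 of the list. Within the 3 runs, a PolII_S5P summit was within 500 bp of 1 peak, in animal 9.

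Others were of 8 regions at chr6:128736983-128820367 and chr11:68927600-69015225, each with 2 regions in all 3 libraries, and of 7 at chr1:170861287-170939285. In animal 9 the 8, 8 and 7 peaks of these runs had median folds of 6.71, 9.69 and 9.02. Smaller runs lay at chr5:125466887-125486697 (5 regions, 3 in 2 libraries), chr7:59394152-59419878 (5 regions) and chr18:65124424-65234485 (6 regions, all in animal 9 alone). At the chromosome 7 run all 5 peaks of animal 9 and both of animal 5 had H3K27ac and PolII_S5P summits within 500 bp.

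Several runs had low folds or regions called mostly in a single library. At chr10:3059948-3066916 all 8 peaks of the 3 animals lay within 500 bp of a PolII_S5P summit and had folds of 1.59 to 2.86. The 3 runs of chromosome 8, at chr8:20024573-20152747, chr8:20645122-20717503 and chr8:21224383-21318044, held 18 regions, 1 of them in 2 libraries. Each of these runs had peaks of more than 1 library, and their folds ran from 2.30 to 9.21. The run at chr1:24651429-24655233 had 5 regions within 3.8 kb, all of them in animal 5 alone, with folds of 2.45 to 5.75 and the highest −log10 q of that list (650). No MBD3, H3K27ac or PolII_S5P summit was within 500 bp of any of its peaks. The same library had 12 peaks on the mitochondrial chromosome, where the TDG libraries of animals 7 and 9 had 0 and 1. Nuclear genomes carry copies of mitochondrial DNA, and the part of such sequence in this run was not tested.

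**Figure D4:**
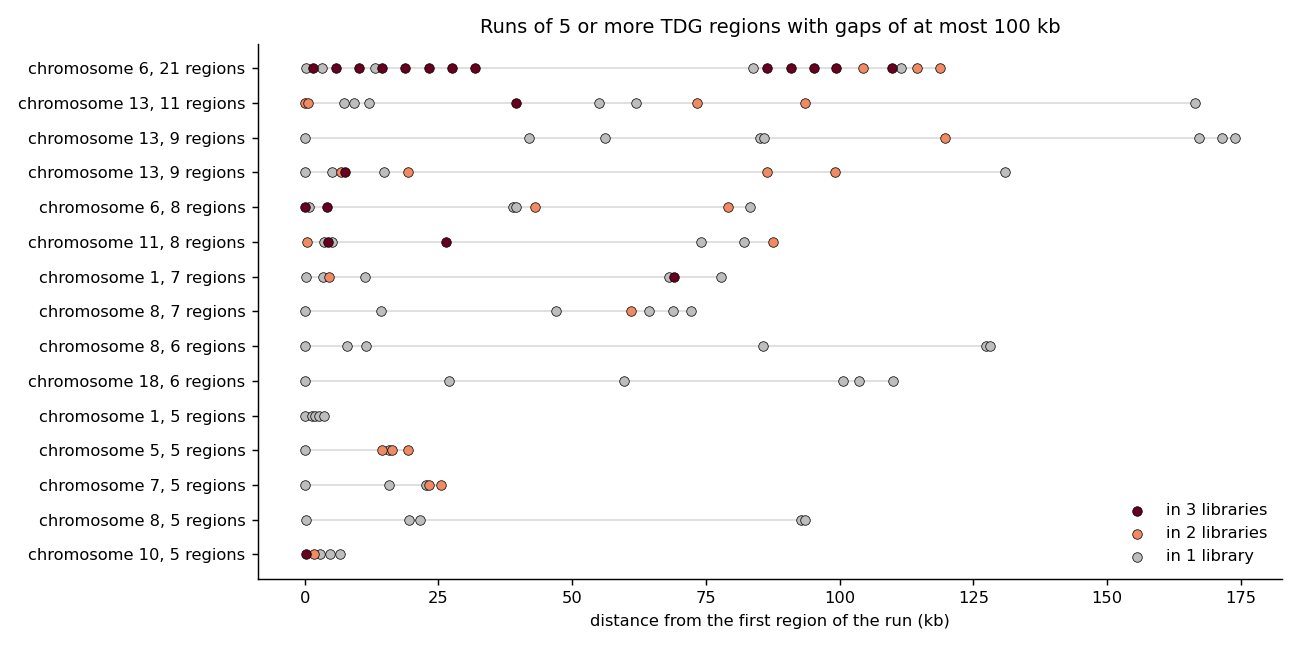
The 15 runs of 5 or more TDG regions linked by gaps of at most 100 kb, 1 row per run named by chromosome and number of regions, with each region at its distance in kb from the first of its run. Colour gives the number of libraries with a peak. The chromosome 6 run of 21 regions shows 13 regions in 3 libraries, most at even spacing on both sides of its widest gap.

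The distance from each TDG summit to the nearest summit of MBD3, H3K27ac and PolII_S5P of the same animal differed widely between MBD3 and H3K27ac on 1 side and PolII_S5P on the other. For MBD3 the median distance was 291 bp in animal 5, 8.51 kb in animal 7 and 298.5 bp in animal 9. For H3K27ac it was 409 bp, 12.9 kb and 473.5 bp, and for PolII_S5P 42.7 kb, 34.6 kb and 30.0 kb. Animal 7 stood apart for MBD3 and H3K27ac, and the 3 same-animal medians were closer together for PolII_S5P. Within 500 bp lay a MBD3 summit for 65.6%, 34.2% and 57.9% of TDG summits, a H3K27ac summit for 56.8%, 23.8% and 50.9%, and a PolII_S5P summit for 23.2%, 16.7% and 20.7%. The PolII_S5P lists of animals 5, 7 and 9 differed in length, with 4351, 19509 and 12526 peaks. Against the PolII_S5P list of animal 7 alone, the shares within 500 bp were 39.2%, 16.7% and 17.8% for the TDG lists of animals 5, 7 and 9.

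The TDG and MBD3 lists write unplaced sequences with a doubled prefix and the other lists do not. Their files are also numbered by animal, while those of the other antibodies are numbered in another way and tied to an animal by the labels. The antibody and any difference in processing between these sets of lists cannot be told apart in what follows. MBD3 summits were nearer than H3K27ac summits in each animal. The share within 500 bp was 8.76 ± 1.68 points higher for MBD3 (SD of the 3 differences, n = 3), and the median distance differed by -0.18 on the log10 scale. The exact permutation test, which ignores the pairing, gave adjusted p = 0.5 for both. Animal 7 was the lowest of the 3 animals for MBD3 and for H3K27ac. MBD3 exceeded PolII_S5P by 32.4 points and H3K27ac exceeded PolII_S5P by 23.6 points (exact permutation adjusted p = 0.15 each, 3 of 3 animals).

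The PolII_S5P lists were the shortest, and a longer list has nearer summits. The lists of MBD3, H3K27ac and PolII_S5P were cut in each animal to the length of the shortest, keeping the peaks of highest fold. The cut thus changed the strength of the peaks together with the list length. The mean shares within 500 bp were then 20.6% for MBD3, 16.1% for H3K27ac and 20.2% for PolII_S5P. The sign of H3K27ac minus PolII_S5P then turned, to -4.07 points, and MBD3 minus PolII_S5P was 0.425 points.

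**Figure D5:**
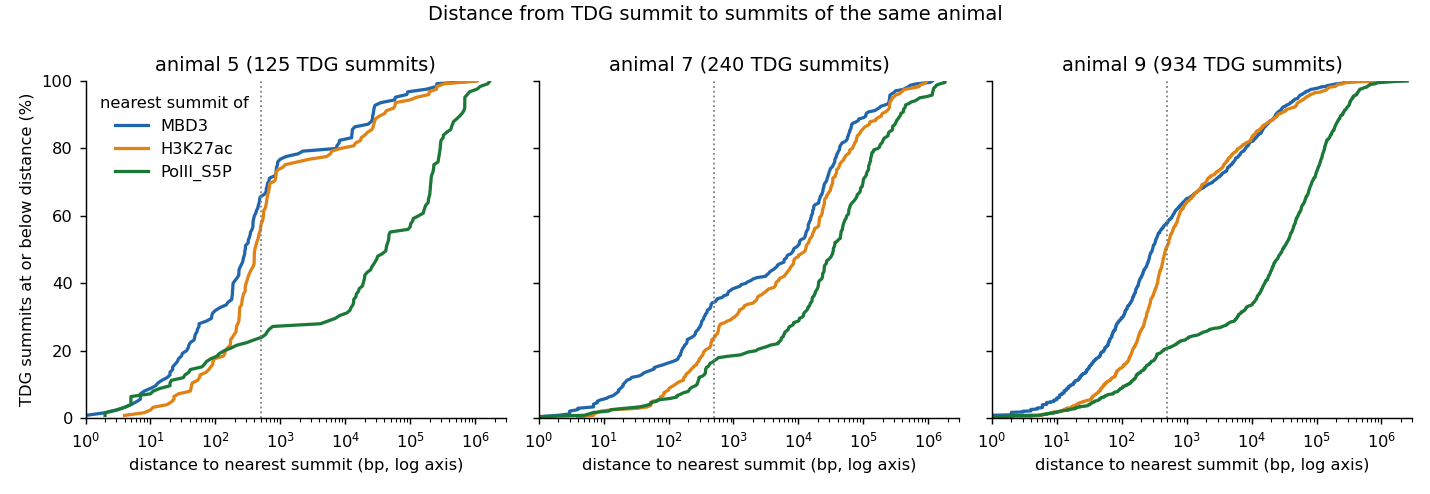
Cumulative percent of TDG summits by distance to the nearest MBD3, H3K27ac or PolII_S5P summit of the same animal (log axis in bp), with a dotted line at 500 bp. At that line the MBD3 curve stands at 65.6%, 34.2% and 57.9% in animals 5, 7 and 9, above H3K27ac and PolII_S5P in each.

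Among TDG summits that had a given summit within 1000 bp, the medians of the distance were 185.5 bp, 155 bp and 121 bp for MBD3 and 278.5 bp, 239 bp and 255 bp for H3K27ac. For PolII_S5P they were 40 bp, 244 bp and 161 bp. Of the near MBD3 summits, 42.9 ± 2.54% were within 100 bp, of the near H3K27ac summits 25.1 ± 2.66%, and of the near PolII_S5P summits 43.9 ± 18.4% (SD, n = 3). Where MBD3 and H3K27ac were both within 1000 bp, MBD3 was the nearer in 49 of 79, 43 of 65 and 309 of 484 cases. H3K27ac peaks are broad and have 1 summit each. In animals 5, 7 and 9, 11.2%, 5.42% and 12.2% of TDG summits lay inside a H3K27ac peak but over 500 bp from its summit, against 8.8%, 3.33% and 2.78% for MBD3.

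By the combination of summits within 500 bp, the most frequent class in animals 5 and 9 other than none was MBD3 with H3K27ac and without PolII_S5P (35.2% and 26.9%), and in animal 7 MBD3 alone (12.9%). All of MBD3, H3K27ac and PolII_S5P were near in 7.2%, 10% and 11.7%. None was near in 13.6%, 58.3% and 27.1%, and none lay within 10 kb in 5.6%, 37.1% and 8.03%. The 89 peaks of animal 7 in that last class had a median fold of 4.07, against a list median of 4.63.

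The strongest TDG peaks were near MBD3 more often than the weakest in each animal, by little in animal 9. In the top quartile by fold, 71.9%, 71.7% and 66.1% of TDG summits had a MBD3 summit within 500 bp, against 48.4%, 21.7% and 63.2% in the bottom quartile. The mean difference of 25.5 points had the same sign in 3 of 3 animals (exact permutation adjusted p = 0.3 over 3 measures) and was 13.2 points without animal 7. With the other lists cut to equal length it was 15.5 points (exact permutation adjusted p = 0.6). In the second quartile from the bottom, MBD3 was near 58.1%, 20% and 50.7% of TDG summits in animals 5, 7 and 9. In the third these shares were 83.9%, 23.3% and 51.6%, so in no animal did the share rise steadily with strength. For H3K27ac the top quartile had 59.4%, 58.3% and 51.7%, against 51.6%, 8.33% and 58.0% in the weakest. For PolII_S5P the strongest had 12.5%, 35% and 21.2%, against 38.7%, 13.3% and 29.4%. Neither had the same sign in all animals.

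The summits of a second antibody give a scale for these shares. Near a PolII_S5P summit lay 23.2%, 16.7% and 20.7% of TDG summits, against 3.8%, 15.5% and 14.3% of all MBD3 summits of the same animal. The difference of 9.0 points had the same sign in 3 of 3 animals (exact permutation adjusted p = 0.3 over 3 comparisons) and was 3.79 points without animal 5. It turned to -4.82 points when MBD3 was cut to its strongest peaks in the number of the TDG list. Near a H3K27ac summit, TDG averaged 43.8 ± 17.6% and MBD3 48.7 ± 1.49% (SD, n = 3 each). Without animal 7 the difference, -4.93 points, was 4.5 points in the other direction (exact permutation adjusted p = 1 with all animals). Near a MBD3 summit, TDG averaged 52.6 ± 16.4% and PolII_S5P 47.6 ± 3.05%, and the sign changed without animal 5 (-0.502 points).

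The TDG lists were far shorter than the other lists, so the share of those lists near TDG could only be small. The same number of TDG peaks also makes a larger share of a shorter list, such as that of PolII_S5P. The MBD3 and H3K27ac neighbours of TDG were above the median strength of their lists. A TDG summit was within 500 bp of 0.143%, 0.134% and 1.4% of MBD3 summits in animals 5, 7 and 9, of 0.112%, 0.0884% and 0.845% of H3K27ac summits, and of 0.667%, 0.21% and 1.52% of PolII_S5P summits. The MBD3 peaks nearest to such TDG summits stood at median fold percentiles of 80.3, 71.6 and 73.1 within their lists, and 61.0%, 47.6% and 48.8% of them were in the top quartile. They were broad, with median widths of 1134, 1004.5 and 547 bp, against 456, 444 and 388 bp for the whole MBD3 lists. The H3K27ac neighbours stood at percentiles of 76.4, 63.8 and 84.0, and the PolII_S5P neighbours at 70.4, 30.2 and 65.7. Across these pairs the Spearman coefficient of TDG fold with MBD3 fold was -0.097, 0.383 and -0.11 in animals 5, 7 and 9, so its sign differed between animals.

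Averaged over pairs of lists, shares were close whether both lists came from the same animal or from different ones. The share of TDG summits with a MBD3 summit within 500 bp averaged 52.6% in the same animal (3 pairs of lists, range 34.2 to 65.6%) and 53.5% across animals (6 pairs, range 31.3 to 71.2%). For H3K27ac the averages were 43.8% and 41.4%, and for PolII_S5P 20.2% (range 16.7 to 23.2%) and 20.1% (range 7.60 to 39.2%). Single PolII_S5P pairs differed, since the TDG list of animal 5 had 39.2% against PolII_S5P of animal 7 and that of animal 9 had 7.60% against PolII_S5P of animal 5. The TDG list of animal 7 was low against the MBD3 lists of all 3 animals. Its peaks not shared with another animal lay within 500 bp of MBD3 summits of animals 5, 7 and 9 in 11.6%, 12.9% and 9.03%, while its shared peaks did so in 68.2%, 72.9% and 71.8%.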

How the data were processed

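ChIP-seq peak lists of 5 antibodies from the cortices of 3 mice were used. Per the submitters' processing notes, peaks come from MACS2 2.2.7.1 on build mm39, and the notes also name Picard 2.18.29, SAMtools 1.16.1, Trim Galore 0.6.7 and bcl2fastq 2.20. An aligner and a control for the peak caller were not given in the sources used here. Each deposited narrowPeak list holds, per peak, the fold enrichment of the authors as a linear ratio, the q-value and p-value as −log10, a whole-number score and the distance of the summit from the peak start, a number in bp of another kind. The score was not tested. Coordinates are printed counted from 1. Depth is unknown.

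Peaks on chromosomes 1 to 19 were kept. TDG peaks overlapping by 1 bp or more were merged, and regions were linked at gaps of up to 100 kb. Each library gave 1 value per measure, or 1 per class of peaks. Values were compared by exact permutation tests that ignore pairing, with Benjamini-Hochberg adjustment within a family. The labels give 1 animal number to the libraries of 1 cortex, and this pairs them. Alternatives changed the q threshold, list length, distance, gap and merging, and left out 1 animal in turn. Lists were shortened by keeping the peaks of highest fold. Named regions are the 10 with the best mean rank of fold in all 3 libraries, the best per pair of animals, the strongest peak of 1 animal only, the widest peak per library, runs of 5 or more regions and the 3 nearest to MBD3. Members, lists and thresholds were chosen with earlier results of these data known. Sequence and gene annotation of the regions need an mm39 reference and were not run. The distance and merging code was tested on simulated lists. Versions were matplotlib 3.10.9, scipy 1.17.1, pandas 2.3.3 and numpy 2.4.6 under Python 3.11.15.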

Additional observations from a re-analysis of the deposited data

Results flagged for a closer look

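TDG lists also held peaks outside chromosomes 1 to 19, which enter no comparison above, and the input samples that would give a background were not analysed here. Animal 5 had 12 TDG peaks on the mitochondrial chromosome, with folds of 2.95 to 5.59, while animals 7 and 9 had 0 and 1 and the other 12 libraries had 2 in all, both in MBD3 of animal 7. Chromosome X held 2 TDG peaks in animal 5, 13 in animal 7 and 14 in animal 9. Chromosome Y held 3, 3 and 9 TDG peaks, although the labels give female mice, and 13 to 15 peaks in each MBD3 and H3K27ac list. Unplaced sequences held 1, 7 and 8 TDG peaks, of which 1, 7 and 5 were on MU069435v1. Each count above 3 is named here because it exceeds the limit that a count of 0 allows. Their origin was not tested.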

How the results depend on the processing

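Of 26 compared results, 14 kept their direction under every alternative run, among them all 4 width differences and the fold percentile, width, MBD3 and H3K27ac differences between shared and other peaks. The direction of the H3K4me1 width difference was already given by the shortest peaks of the lists. No result passed 0.05 in any setting, since the design does not allow it. With the replicate block, which pairs libraries by animal, the smallest exact p is 0.25, and the 8.76-point difference between MBD3 and H3K27ac had p = 0.25; no call changed. The cause of the changes below was not tested, except that shorter lists hold fewer summits.

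With −log10 q of at least 5, the shared minus other PolII_S5P difference was -8.46 points, clustered minus isolated MBD3 -0.146, TDG minus MBD3 near H3K27ac 0.44, and the median PolII_S5P distance 100168 bp. With X and Y added, shared minus other PolII_S5P was -0.913, clustered minus isolated fold percentile -1.62 and MBD3 -0.353. Merging peaks within 500 bp gave -1.08 for shared minus other PolII_S5P. With TDG lists of equal length, 39 regions were in exactly 2 libraries, shared minus other PolII_S5P was -4.95, TDG minus MBD3 near H3K27ac 0.331 and strongest minus weakest PolII_S5P 5.61. With the other lists of equal length, MBD3 and H3K27ac stood at 20.6% and 16.1% within 500 bp, at medians of 33008 and 48863 bp, and H3K27ac minus PolII_S5P was -4.07. Cutting MBD3 to the TDG length gave -4.82 for TDG minus MBD3 near PolII_S5P.

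Within 200 bp, MBD3, H3K27ac and PolII_S5P were near 35.3%, 21.4% and 14.2% of TDG summits; shared minus other PolII_S5P was -6.42, clustered minus isolated MBD3 -3.35 and PolII_S5P 1.93, TDG minus MBD3 near H3K27ac 0.336, and strongest minus weakest H3K27ac -1.67. Within 1000 bp, shared minus other PolII_S5P was -2.0 and clustered minus isolated H3K27ac 0.602. A gap of 10 kb or 1 Mb put 28.03% or 75.6% of peaks in clusters, and at 1 Mb clustered minus isolated was 2.28 for H3K27ac and 1.71 for PolII_S5P. Counting regions within 100 kb once left 36 regions in all libraries and 37 in 2, a PolII_S5P median of 28806 bp, and strongest minus weakest PolII_S5P at 0.373. Without the chromosome 6 run, an alternative chosen after seeing the data, clustered minus isolated was -0.064 for log2 width, -7.70 for MBD3 and 1.66 for PolII_S5P, and the PolII_S5P median 29212 bp.

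Leaving out 1 animal in turn gave 62 to 91 regions in all libraries left. It moved shared minus other PolII_S5P over -18.8 to 14.1 points, clustered minus isolated MBD3 over -5.04 to 6.11 and fold percentile over -8.47 to 5.96, strongest minus weakest PolII_S5P over -17.2 to 6.71, TDG minus MBD3 near H3K27ac over -11.7 to 4.5, and TDG minus PolII_S5P near MBD3 over -0.502 to 14.8. Without animal 7 the mean of the median MBD3 distances was 295 bp, against 3033 bp with all animals. Read depth is unknown, which limits every comparison of list lengths.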
